A study of Mus musculus with 2 samples.

Results

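Transcription factors that specify and maintain the identity of pancreatic β cells were examined in MIN6 cells with and without the FTO vector. The set holds 8 genes, Pdx1, Mafa, Nkx6-1, Nkx2-2, Neurod1, Isl1, Pax6 and Foxa2, of 20653 genes that could be named on the array. Members were taken by name, and every probe whose accession maps to one of them was used, which gave 12 probes and 21 spots. None of the 8 factors differed by more than 2-fold between the arrays. The differences lay between -0.23 and 0.36 on the log2 scale, and their median was -0.014. With each array centred on its median, the median of the members was 0.14 and that of all named genes 0.10.

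MIN6 is an insulinoma line derived from a transgenic C57Bl/6 mouse, used here between passages 15 and 20. The FTO group received a lentivirus made from PLVX-IRES-ZsGreen-mFTO, which carries mouse FTO and the green reporter ZsGreen on 1 transcript. The control group received the empty PLVX-IRES-ZsGreen vector, so both groups carry the virus and the reporter. Transduction lasted 48 h in the protocol, and RNA of each group was labeled with Cy3 and hybridized to 1 one-color Agilent array. With a single array on each side, the differences come without a test, a p-value or an error over cultures. Every direction rests on the labels, since the single probe of Fto itself had a signal of 7301 on the FTO array and 5179 on the control array, which came to 0.064 (log2, FTO minus control) after normalization. Its spot error, which combines the error estimates of both spots from the Feature Extraction software, was 0.20. Whether that probe reads the coding sequence carried by the vector was not tested. In RNA of whole cultures, fewer cells expressing a factor and less of its RNA per cell cannot be told apart.

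These factors work as a network. Foxa2, a forkhead protein, opens chromatin early in the pancreatic lineage. Pdx1 is needed both for the pancreas to form and for adult β cells to express insulin. Neurod1, a basic helix-loop-helix protein that pairs with E proteins, acts downstream of Neurog3 in endocrine differentiation. Nkx2-2, Nkx6-1, Pax6 and Isl1 carry homeodomains. Nkx2-2 and Nkx6-1 keep β cells from other endocrine fates, while Pax6 and Isl1 act in all islet endocrine cells. Mafa, a basic leucine zipper protein, comes late, marks mature β cells and binds the insulin promoter together with Pdx1 and Neurod1. Several members bind the promoters of other members.

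The regulatory start regions of Neurod1 and Pdx1 are shown because Neurod1 gave the largest difference of the 8 and Pdx1 is its partner at the insulin gene. Each window holds the 250 bases before the annotated start, from RefSeq on GRCm38.p6, 5′ to 3′ on the strand of the gene. Capitals mark the E-box CANNTG, the core that basic helix-loop-helix proteins such as Neurod1 recognize, and the homeodomain core TAAT, searched on both strands.
Neurod1, chr2:79456637-79456886, minus strand: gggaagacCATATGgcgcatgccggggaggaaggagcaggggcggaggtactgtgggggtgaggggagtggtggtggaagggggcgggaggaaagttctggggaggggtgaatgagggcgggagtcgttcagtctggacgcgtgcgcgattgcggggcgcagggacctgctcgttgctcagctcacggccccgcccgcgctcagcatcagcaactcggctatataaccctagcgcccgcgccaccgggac
Pdx1, chr5:147269847-147270096, plus strand: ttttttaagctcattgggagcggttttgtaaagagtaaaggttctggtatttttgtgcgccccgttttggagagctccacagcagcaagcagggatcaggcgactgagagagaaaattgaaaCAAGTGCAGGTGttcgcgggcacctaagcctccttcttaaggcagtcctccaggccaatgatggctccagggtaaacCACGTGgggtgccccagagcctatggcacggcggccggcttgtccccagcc
The Neurod1 window held 1 E-box and the Pdx1 window 3, of which 2 adjoin, and neither window held TAAT. Of all 32851 promoter windows of this length, 66.2% held CANNTG and 54.9% held TAAT on either strand. The 7 members matched in the promoter table have 10 windows, of which 6 held CANNTG and 6 held TAAT. A match is a description of the letters and not of binding.

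All 12 probes were well above background on both arrays. Their signals before normalization ran from 824 to 64241, while the local background beside their spots was at most 36.0. Before normalization all 12 were brighter on the FTO array, with ratios from 1.15 to 1.74. The median ratio of the 11138 bright named genes, those with a mean log2 signal of at least 9 and well above background on both arrays, was 1.34, so an excess of this kind was shared by bright genes in general. After quantile normalization 4 members lay above 0 and 4 below, with the brightest probe standing for each gene. The median over all 18513 named genes tested was 0.0064. By the 2-fold rule 2.68% of named genes and 3.48% of all probes differed, but only 0.198% of the bright named genes, which is the group the members belong to. No member probe passed 1.5-fold either, a threshold that 0.745% of the bright named genes passed.

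**Figure D1:**
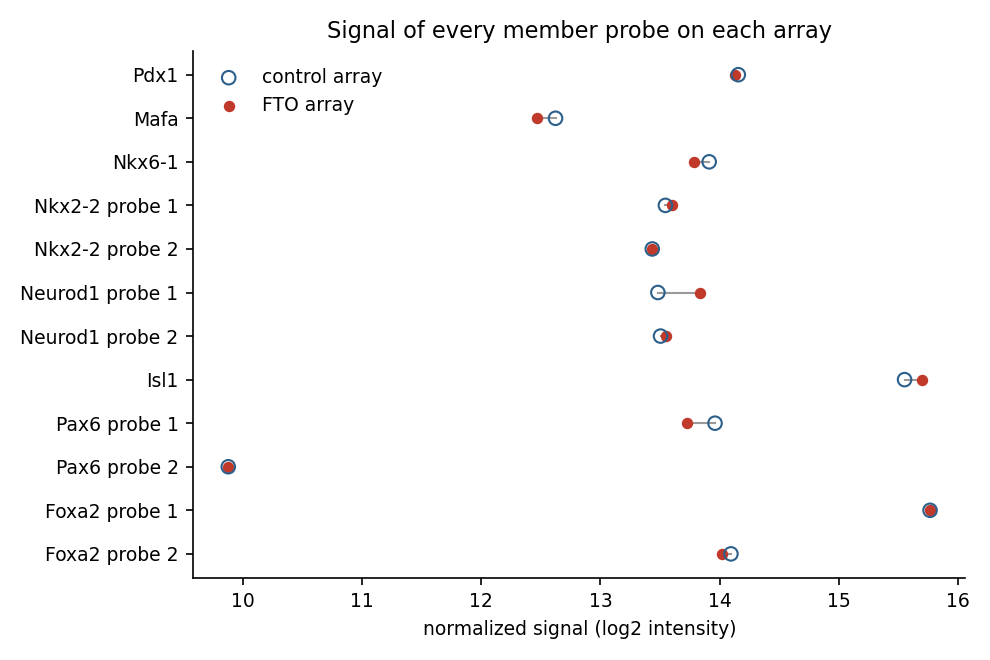
Normalized log2 signal (horizontal axis) of each of the 12 probes on the control array (open circles) and the FTO array (filled circles), with 1 array per condition. The circles overlap or nearly touch at most probes, and the widest gap is at Neurod1 probe 1; levels of different probes are not comparable.

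Pdx1, Mafa and Nkx6-1, which maintain the mature β cell, gave differences within their spot errors after quantile normalization. Pdx1 had 1 probe (NM_008814), with a signal of 20874 on the FTO array and 15678 on the control array. After normalization its values were 14.13 and 14.16, a difference of -0.030 on the log2 scale, against a spot error of 0.20. The arrays were nearly level at this probe, and the sign turned with cyclic loess and median centring. Mafa also had 1 probe (NM_194350), with 6528 on the FTO array and 5429 on the control array. Its normalized difference was -0.16, again with a spot error of 0.20, and it came to 0.00082 when each array was centred on its median, which is -0.10 relative to the named genes in that setting. With the median of its neighbouring probes subtracted, Mafa stood at -0.24, beyond the spot error. Nkx6-1 (NM_144955), a repressor that keeps β cells from other endocrine fates, had signals of 16541 and 13216 and a difference of -0.12, which was 0.059 with median centring and -0.046 relative to the named genes there. The spot error had nearly the same value, 0.20, at every member probe printed once.

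Neurod1 (NM_010894) stood highest among the 8, but at only 1 of its 2 probes. Probe 1 had a signal of 17134 on the FTO array and 9845 on the control array. Its normalized values were 13.84 and 13.48, a difference of 0.36 or 1.28-fold, with a spot error of 0.20. Of the bright named genes 1.25% had a higher value and 3.03% a larger absolute difference. Probe 2 had signals of 13955 and 9978, and its difference was 0.047. The differences at the probes were thus 0.31 apart. Neither probe lies in an area of lost signal, and 82 bright neighbouring probes of probe 1 had a median difference of 0.044. With that neighbourhood subtracted, probe 1 stood at 0.31.

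Isl1, a LIM homeodomain factor of all islet endocrine cells, is the member measured most often, since its probe (NM_021459) is printed 10 times on each array. Its signals on the FTO array had a lowest value of 55192, a median of 61752 and a highest value of 66247. On the control array they were 37940, 41587 and 44165, so the spots of the arrays did not overlap before normalization. That separation includes the excess shared by bright named genes, whose median ratio was 1.34, against 1.47 for Isl1. With the normalization shift of the probe applied to every spot, the ranges of the arrays overlapped. Left out as outliers were 2 spots on the FTO array and 1 on the control array. From the spots kept on each array, the normalized values were 15.70 and 15.55, which differ by 0.14, beyond the spot error of 0.070. At the 8 positions used on both arrays the differences ran from 0.0075 to 0.25, with a mean of 0.16 and an SD of 0.097. All of them lay above 0, but 2 were close to it. The spots of an array share 1 hybridization and say nothing about other cultures.

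**Figure D2:**
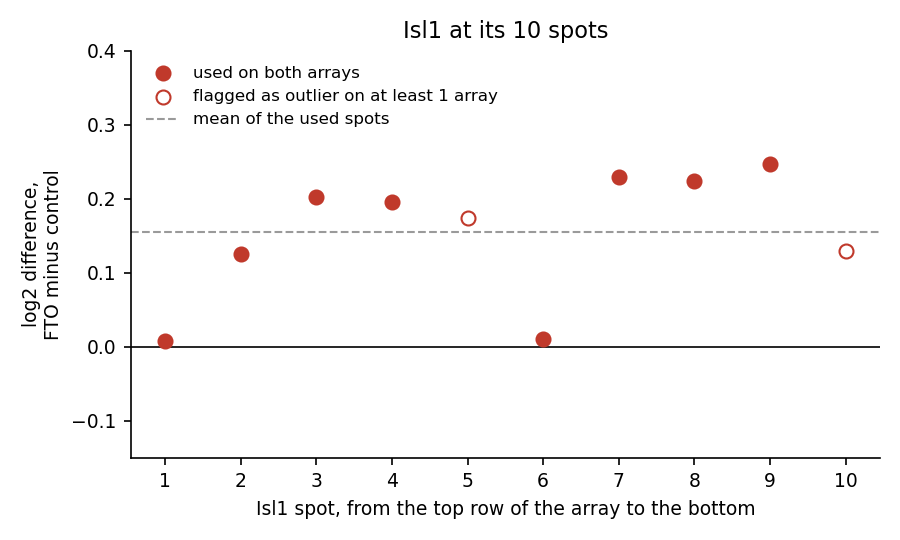
Normalized log2 difference, FTO minus control (vertical axis), at each of the 10 Isl1 spots in order of array row (horizontal axis); filled points were used on both arrays, open points were flagged as outliers on at least 1, and the dashed line is the mean of the used spots, 0.16. Spots 1 and 6 lie near 0 and the others between 0.13 and 0.25.

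The spread at Isl1 can be set beside that of other repeated probes. Over 224 bright probes printed 10 times, the median SD of the spot differences was 0.056, with a 10th percentile of 0.038 and a 90th percentile of 0.090. The SD of Isl1 lay above that 90th percentile. Its spot 1, at 0.0075, lies in an area of lost signal on the control array. Spots 5 and 9, at 0.17 and 0.25, lie in such areas on the FTO array, and spot 6, at 0.011, lies in none. The part of these areas in the spread was not tested. Of the 12 member probes, 6 had differences beyond the median SD of 0.056. Another measure, their own spot error, was passed by 3, namely Neurod1 probe 1, Isl1 and Pax6 probe 1. The share of bright named genes beyond their own spot error was not counted. Isl1 passed at 0.14 because its error, from repeated spots, was 0.070, while Mafa at -0.16 did not pass 0.20. Pax6 probe 1 was narrowly beyond it, and its value was -0.17 with normexp background correction, and -0.17 relative to the named genes with median centring, both within 0.20. The bright named genes had a median absolute difference of 0.092, so most of them also lay beyond the median SD. A larger absolute difference than that of Pax6 probe 1 was found in 11.2% of them, and than that of Isl1 in 29.7%. The median SD and the spot error cover the array surface and the printing of spots, not the variation between cultures.

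Nkx2-2, a homeodomain repressor whose loss turns β cells toward other hormones, has 2 probes annotated to different transcripts of the gene. Whether they read different transcripts was not tested. The probe to NM_001077632 had signals of 14479 on the FTO array and 10272 on the control array, and differed by 0.055. The probe to NM_010919 had signals of 12886 and 9532, and a difference of 0.0018. The differences were 0.053 apart, less than the spot error of either. The second probe lies in an area of lost signal on the FTO array.

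Pax6, a paired-box and homeodomain factor of all islet endocrine cells, stood lowest, and again at only 1 of 2 probes. Probe 1 (NM_013627) had signals of 15811 on the FTO array and 13737 on the control array, the smallest excess of any member before normalization. Its normalized values were 13.73 and 13.96, a difference of -0.23 with a spot error of 0.20. Probe 2, to the same accession, had signals of 1070 and 824 and a difference of -0.00075. The lower value at probe 1 was therefore not seen at probe 2, and the gap between them was 0.23. Of the bright named genes 94.8% had a higher value than probe 1.

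Foxa2 (NM_010446) was close to 0 at both probes. Probe 1 had signals of 64241 on the FTO array and 48526 on the control array, and its difference was 0.0024. Probe 2 had 19454 and 15031, and its difference was -0.071. The signs differ, with probe 1 almost at 0, but the gap of 0.074 is smaller than the spot errors, each 0.20.

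**Figure D3:**
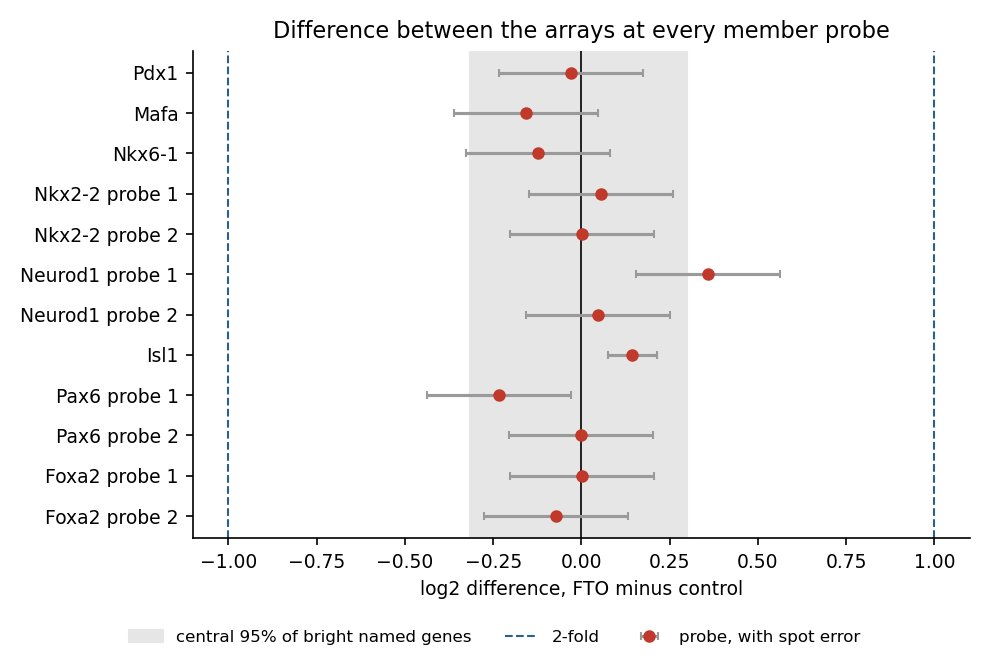
Log2 difference, FTO minus control (horizontal axis), at each of the 12 probes, with bars for the combined spot error; the grey band holds the central 95% of bright named genes, -0.32 to 0.30, and the dashed lines mark 2-fold. Neurod1 probe 1, at 0.36, is the only point outside the band, and all points are far from the dashed lines.

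Agreement between probes was examined over all genes with exactly 2 bright probes, 2171 in number. Their median gap was 0.11 and the 90th percentile was 0.29. Gaps larger than that of Neurod1 occurred in 8.11% of these genes, larger than that of Pax6 in 17.3%, of Foxa2 in 63.8% and of Nkx2-2 in 73.1%. The probes of a gene had the same sign in 60.6% of all pairs and in 3 of the 4 members, where the second value of Pax6 and of Nkx2-2 was almost 0. Probes of 1 gene read the same RNA and are not replicates.

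**Figure D4:**
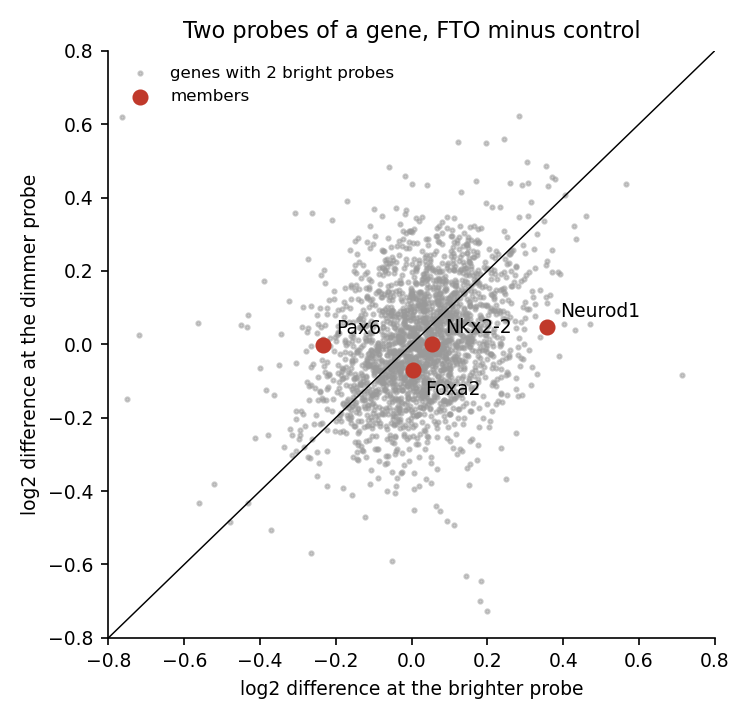
Each point is a gene with 2 bright probes, its log2 difference (FTO minus control) at the brighter probe on the horizontal axis and at the dimmer probe on the vertical axis; 7 genes lie beyond the axes, and the line marks equal values. Nkx2-2 and Foxa2 lie near the line, while Neurod1 at 0.36 and 0.047 and Pax6 at -0.23 and -0.00075 lie away from it.

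Values near 0 had no settled sign. Pdx1 was 0.0084 with cyclic loess. Foxa2 was -0.021 with 75th percentile scaling, a setting in which the median of all named genes was -0.055. Mafa and Nkx6-1 were above 0 in 1 setting, median centring, which raised named genes in common. Centring each array on its median raised the median of all named genes to 0.10, and relative to that shift Pdx1 stood at 0.043, Mafa at -0.10, Nkx6-1 at -0.046, Foxa2 at 0.035, Nkx2-2 at 0.13, Isl1 at 0.19, Pax6 at -0.17 and Neurod1 at 0.43. No setting brought any member past 2-fold.

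**Figure D5:**
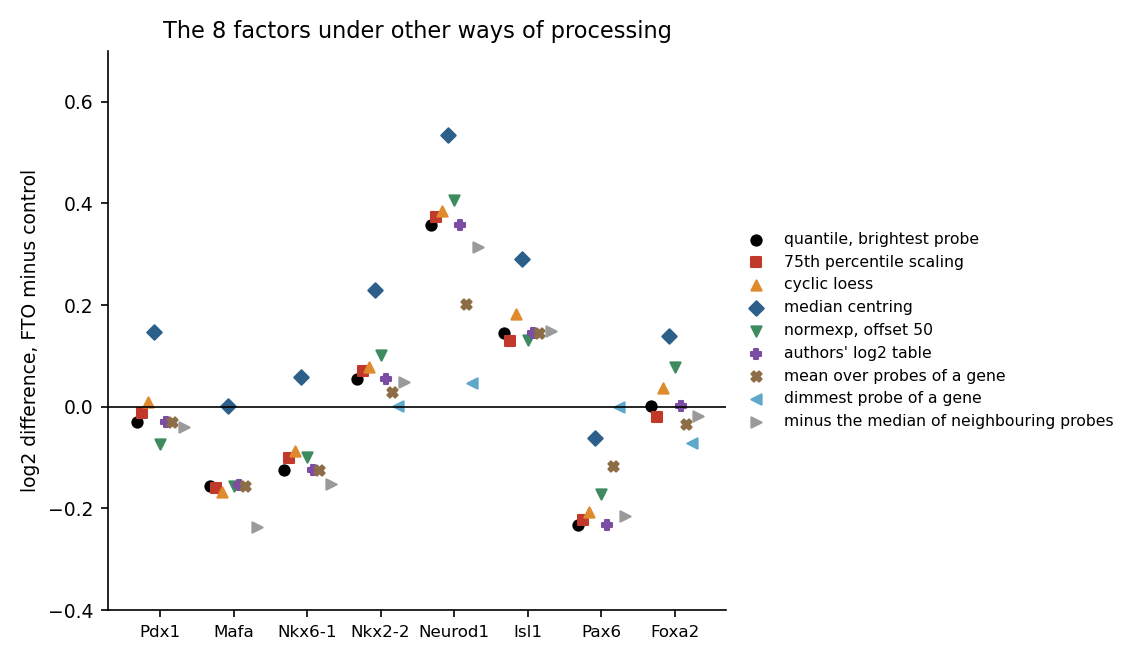
Log2 difference, FTO minus control (vertical axis), of each of the 8 factors under quantile normalization with the brightest probe (black circles) and 8 other settings named in the legend; the dimmest-probe setting is drawn only for the 4 genes with 2 probes. Points of Pdx1 and Foxa2 lie on both sides of 0, as do those of Mafa and Nkx6-1 through median centring alone, Neurod1 ranges from 0.047 with its dimmest probe to 0.53 with median centring, and no point reaches 2-fold.

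Close relatives of the members were mostly dim, with 10 of 30 tested in the bright range. Pax4, a repressor of the α cell fate, had signals of 320 on the FTO array and 248 on the control array and a difference of 0.067. Isl2 had 597 and 401 and a difference of 0.23, Nkx6-2 had 1077 and 828 and a difference of -0.00035, and Foxa1 had 929 and 718 and a difference of -0.022. The probes of Isl2 and Foxa1 lie in areas of lost signal on the FTO array. Neurod2 (31.0 and 25.7) and Nkx2-9 (94.9 and 69.5) differed by 0.20 and 0.27. Of 33 relatives 30 were tested, with a median of 0.053, and 1 was past 2-fold. The highest value was 0.41 at Pax1, with signals of 26.8 and 19.4. The gene past 2-fold was Gsx2, a homeobox gene of the ParaHox group like Pdx1, with signals of 20.6 on the FTO array and 39.3 on the control array and a difference of -1.003. That probe lies in an area of lost signal on the FTO array, and the part of the area in the result was not tested. A second Gsx2 probe, outside such areas, had signals of 13.0 and 26.6, the first of which did not count as well above background.

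Other islet transcription factors gave 0 calls among 20 tested of 24, with a median of -0.015. Neurog3, which starts the endocrine program and lies upstream of Neurod1, was lowest with signals of 213 and 233 and a difference of -0.40. Prox1, a homeobox factor of pancreatic progenitors, was highest with signals of 60.7 and 36.5 and a difference of 0.61. Among 18 cofactors, all tested, none was past 2-fold and the median was 0.0026. They ran from -0.26 at Ldb1, the partner of Isl1, to 0.32 at Ep300, a coactivator acetyltransferase.

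Whether the members activate each gene in the list of downstream β cell genes was not tested. These genes were all measured, 22 of 22, and none was past 2-fold. Their median was 0.059, with 14 above 0 and 8 below. Slc2a2, the glucose transporter GLUT2 and a target of Pdx1, was highest, with signals of 9476 on the FTO array and 5179 on the control array and a difference of 0.45, beyond its spot error of 0.20. Ins2 was lowest, with 276722 and 320363 and a difference of -0.24, also beyond its spot error of 0.20. Ins1 had 215620 and 220341 and a difference of -0.14. Lower values were not confined to the insulin genes among the listed genes at least as bright as Ins1. Iapp differed by -0.19, Pcsk2 by -0.16, Chgb by -0.11 and Chga by -0.0050, while Abcc8 differed by 0.12. Pcsk2 and Abcc8 each have a dimmer second probe with the other sign, 0.031 for Pcsk2 and -0.017 for Abcc8. The brighter probe of Abcc8 lies in an area of lost signal on the FTO array. Of 8 progenitor and dedifferentiation genes 7 were tested, with a median of 0.074 and none past 2-fold. Vim, an intermediate filament gene of mesenchymal and dedifferentiating cells, was highest at 0.69, with signals of 561 and 278 and a spot error of 0.20. Neurog3, also in this list, was lowest at -0.40, with a spot error of 0.21. Of the 7 tested, 4 lay above 0 and 3 below, and Sox9 was at background on both arrays.

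The cell type markers included RNA of several islet hormones beside insulin. All 6 β cell markers were well above background on both arrays, with a median difference of -0.044. Gcg, the glucagon gene of α cells, had signals of 257411 and 243558 and a difference of 0.0084. Sst differed by 0.19, Ppy by -0.077 and Ghrl by -0.12, and Hhex of δ cells was at background on both arrays. The probe of Ppy lies in an area of lost signal on the FTO array. Among the acinar, duct, fibroblast, macrophage and endothelial markers, 1 was past 2-fold. This was Cftr of duct cells, with a signal of 20.6 on the FTO array and none well above background on the control array. It was 2.03-fold higher with its control value raised to the lowest value counted as well above background there. Probes at background can lie above that value, so 2.03 is not a lower limit. The spot error of Cftr was 0.53. The medians were -0.19 for 5 acinar, -0.065 for 3 duct, -0.040 for 3 fibroblast, -0.28 for 2 macrophage and -0.11 for 3 endothelial markers tested. The part of such cells in the values of the 8 factors was not tested.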

How the data were processed

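Total RNA of the 2 groups of MIN6 cells was measured on 1 array each, read in the same scan. Per the file headers, the intensity of each spot was extracted with Agilent Feature Extraction 11.0.1.1, and the authors' deposited intensities are background-subtracted and detrended but not normalized between arrays. The authors also deposited log2 values of 33870 probes, which their methods describe as quantile normalized in GeneSpring GX, and these served as an alternative. Control spots and outlier spots (148 and 141) were left out, no spot was saturated, log2 signals of repeated spots were averaged, and both arrays underwent quantile normalization (limma 3.58.1, R 4.3.3). Tables were handled with pandas 2.3.3 and numpy 2.4.6 under Python 3.11.15, and plots drawn with matplotlib 3.10.9.

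Probes well above background on 1 array or both were kept (for a repeated probe, on 50% of its spots) and called past 2-fold. Of 39417 probes, 82.0% on the FTO array and 84.9% on the control array were above background. The brightest probe stood for a gene, and 27224 probes were named by unversioned accession through NCBI annotation of GRCm38.p6. The array header names mm9, so no coordinates of probes are given. Areas of lost signal are blocks of 76 rows and 17 columns where at least 15% of the counted spots lay over 0.5 below their probe's median. They were 6 of 35 on the FTO array and 2 on the control array. Only spots of repeated probes dimmer than the bright range were counted, so loss of signal at bright probes was not assessed. Neighbours are bright probes within 10 rows and 5 columns. The calls were tested on simulated data. Listed genes are named where called, highest or lowest of their list, or closest to a member. In the list of downstream genes, those at least as bright as Ins1 are also named. Some listed genes are not reported here. The 8 members and all lists (family relatives, other islet factors, cofactors, downstream genes, progenitor genes, cell type markers) were chosen with earlier results of these data known. Precision is limited by having 1 array for each group. Protein and probe sequences were not used here.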

Additional observations from a re-analysis of the deposited data

How the results depend on the processing

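With 1 array per condition, no replicate could be left out, and a difference was taken as moved where it shifted by more than 0.056, the median SD between repeated spots. No paired analysis was possible because each condition has 1 array. The count of members past 2-fold was 0 in all 12 settings listed at the start, with earlier results of these data known, and in the 2 added after seeing the data (the dimmest probe and the neighbourhood correction). Median centring moved Pdx1 to 0.15, Mafa to 0.00082, Nkx6-1 to 0.059, Nkx2-2 to 0.23, Neurod1 to 0.53, Isl1 to 0.29, Pax6 to -0.062, Foxa2 to 0.14 and the median over members to 0.14. Normexp with an offset of 50 moved Pax6 to -0.17 and Foxa2 to 0.078, and the gap between probes to 0.14 for Nkx2-2, 0.38 for Neurod1, 0.13 for Pax6 and 0.14 for Foxa2. The gap of Pax6 was 0.17 with 75th percentile scaling and with median centring. The mean over probes gave 0.20 for Neurod1 and -0.12 for Pax6. With the dimmest probe Neurod1 stood at 0.047, Pax6 at -0.00075 and Foxa2 at -0.071, and with the neighbourhood subtracted Mafa stood at -0.24. The count of named genes past 2-fold was 497, and it came to 55 with normexp, 218 with probes above background on both arrays, 263 without the areas of lost signal, 891 with no filter and 1288 at 1.5-fold. The count of listed islet genes past the threshold, 1, was 0 with normexp and 4 at 1.5-fold. With the areas of lost signal left out, Nkx2-2 had no second probe, so its gap has no value there. The causes were not tested.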
